A study of Mus musculus with 18 samples.

Results

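The chemokines and their receptors were followed through a mouse RNA-seq study of ischemic injury in the cerebral cortex and in bone of the skull. Members were taken by name: gene names beginning with Ccl, Cxcl, Cx3cl or Xcl and a digit are ligands, and those beginning with Ccr, Cxcr, Cx3cr, Xcr or Ackr and a digit are receptors. This gave 53 of the 25918 gene names in the count table, 32 ligands and 21 receptors. The 18 libraries come from BALB/c mice and fall into 6 groups of 3: cortex at day 2 and at day 6 of ischemic injury with control cortex, and interparietal bone, a flat bone of the skull with marrow in it, at day 2 and at day 4 of ischemic injury with control bone. The injured samples hold ischemic and peri-ischemic tissue together. No label gives the way the injury was made, the age of the mice or a sham operation, and none says that the 3 libraries of a group are separate animals, so that each p-value reflects how far these libraries spread and no more. The cortex was sampled late at day 6 and the bone at day 4, and these late times were not set against each other.

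Chemokines are small secreted proteins that attract cells along a gradient, and each acts on one or a few receptors of the G protein-coupled class on the cell that moves. The family is named by the spacing of its first cysteines, as CC, CXC and CX3C. Broadly, Ccl2, Ccl7 and Ccl12 act on Ccr2 and call monocytes, the mouse CXC ligands Cxcl1, Cxcl2, Cxcl3 and Cxcl5 act on Cxcr2 and call neutrophils, Ccl3 and relatives act on Ccr1 among others, and Cxcl12 on Cxcr4 holds blood-forming cells in the marrow. In the brain, neurons make Cx3cl1 and microglia carry its receptor Cx3cr1. Atypical receptors, the Ackr genes, bind chemokines and clear or carry them without G protein signalling.

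Control cortex libraries held 23673255 to 27654269 reads, those of day 2 17199036 to 18476057 and those of day 6 13005050 to 22236424. Control bone libraries held 13398631 to 14765111 reads, those of day 2 15113558 to 15382973 and those of day 4 13142770 to 15445503. Levels are given in CPM, the reads of a gene scaled to a fixed total by the TMM-scaled library size within a tissue, which compare a gene between libraries but not 1 gene with another. Markers of neurons, a list of 4 genes, summed to between 5470 and 7300 CPM in control cortex, and markers of osteoblasts, 4 of 5 listed genes being in the table, to between 1300 and 1720 CPM in control bone. Neuron markers were also present in bone, at 442 to 476 CPM in controls, 30.9 to 119 CPM at day 2 and 66.8 to 92.4 CPM at day 4. Markers of choroid plexus, the tissue that makes cerebrospinal fluid, summed to 5.24 to 11.5 CPM in control bone, to 75.4, 7710 and 1530 CPM in the 3 day 2 bone libraries and to 386 to 2680 CPM at day 4. They also reached 208 CPM in the second day 2 cortex library, against 6.19 and 7.47 CPM in the other day 2 cortex libraries. What part this tissue has in the results below was not tested.

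In uninjured tissue, cortex and bone differed in nearly every measured member. Of 41 members tested, 6 were higher and 29 lower in control cortex than in control bone by edgeR's quasi-likelihood test with Benjamini-Hochberg adjustment, called below 0.05, and 70.9% of all 18173 genes tested were called, 34.5% as higher and 36.4% as lower in cortex. Cortex and bone controls did not overlap for 20 of 23 ligands and 16 of 18 receptors, against 76.7% of all genes. The median log2 difference was -4.55 over 23 ligands and -3.20 over 18 receptors, beside -0.0347 over all genes. Some members passed the filter for testing through bone alone, such as Ccr7 with 0 reads in control cortex and 162 in control bone. Others low in both tissues, such as Cxcl2, were not tested. These counts and medians thus depend in part on the filter, and the medians also on how a count of 0 is handled. In RPKM, which is CPM divided by the exon length in kilobases and so can be compared between genes, Cx3cl1 was first among the ligands of control cortex at 161 ± 24.7 RPKM (SD, n = 3), followed by Cxcl14 at 59.5 ± 3.59 and Ccl27a at 19.8 ± 4.60 RPKM. The libraries of these 3 ligands did not overlap. In control bone Cxcl12 stood at 42.1 ± 4.73 RPKM and Cxcl14 at 39.0 ± 12.8 RPKM (SD, n = 3 each), which overlapped, and Ccl6 followed at 17.2 ± 4.46 RPKM. Among receptors Ackr1 came first in control cortex, at 15.3 ± 1.49 RPKM, and Cx3cr1 followed at 8.54 ± 1.24 RPKM. The place of Ackr1 is uncertain, since it shares exonic bases with Cadm3, as given below. In control bone Cxcr4, Ackr1, Ccr1, Cxcr2, Ackr3 and Cx3cr1 lay between 6.54 and 10.1 RPKM on average.

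The ligands on each side of that divide were these, with CPM scaled over the 6 control libraries. Cx3cl1 had 529, 664 and 717 CPM in control cortex, against 55.4, 29.9 and 46.0 CPM in control bone. Ccl27a, a ligand of Ccr10 known from skin, had 34.9, 53.0 and 54.5 CPM in cortex, against 3.43, 3.14 and 3.75 CPM in bone. Cxcl12 had 56.6, 65.6 and 58.3 CPM in cortex, against 391, 304 and 370 CPM in bone. None of these 3 ligands overlapped between the tissues, and the log2 differences were 3.86 ± 0.26, 3.78 ± 0.22 and -2.56 ± 0.13 (SE; adjusted p = 2.11e-05, 8.60e-06 and 5.28e-06). Cxcl16, a membrane-bound ligand of Cxcr6, and Ccl6, a ligand of Ccr1 in mice, were lower in cortex by -3.91 ± 0.23 and -5.20 ± 0.36 on the log2 scale (adjusted p = 9.03e-06 and 2.25e-05). Ccl5, a ligand of Ccr1, had 1 read in the 3 control cortex libraries, against 110 in those of bone, a 190-fold lower level with a 95% interval of 33.4 to 7570 from counting error alone.

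Among the receptors, those of blood cells were low in uninjured cortex. Cxcr2 had 1 read in all control cortex libraries together, against 1063 in control bone. Ccr2 had 0.928, 0.861 and 0.334 CPM in cortex, against 37.0, 42.4 and 39.0 CPM in bone, and Cxcr4 had 1.98, 1.27 and 1.25 CPM, against 21.2, 14.2 and 21.2 CPM. Both were lower in every cortex library than in any bone library, by -5.78 ± 0.30 and -3.65 ± 0.27 (log2, SE; adjusted p = 5.93e-06 and 2.69e-05). Ackr3, the atypical receptor of Cxcl12, was lower in cortex by -1.39 ± 0.12 (adjusted p = 5.77e-05). The members that were higher in cortex, beside Cx3cl1 and Ccl27a, were Ccl17, Ackr1, Ackr2 and Cx3cr1. Cx3cr1 had 43.9, 32.7 and 39.6 CPM in cortex, against 30.9, 29.1 and 31.2 CPM in bone. The log2 difference was 0.35 ± 0.12 (adjusted p = 0.0387), and without 1 of 5 libraries (control cortex 1 or 3, or any control bone library) its adjusted p was 0.0688 to 0.0963. Ackr1 shares 25.7% of its exonic bases with Cadm3 on the same strand, and Cadm3 stood at 381 CPM in control cortex, so that reads of these 2 genes may not be told apart.

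At day 2 the injured cortex carried high levels of the monocyte and neutrophil ligands, which were almost absent from control cortex. Of 23 ligands tested, 15 rose, 2 fell and 6 were not called, and of 12 receptors tested 6 rose and none fell. Among all 18151 genes tested 24.7% were called, 14.7% as higher and 9.99% as lower, and 39% had day 2 and control libraries that did not overlap, as had 18 of the 23 ligands and 7 of the 12 receptors. The median log2 change was 4.60 over the ligands tested and 0.84 over the receptors tested, beside 0.000352 over all genes. The number of ligands with a mean of at least 1 CPM was 8 in control cortex, 23 at day 2 and 12 at day 6. Genes at low values had to pass a filter to be tested, and 9 ligands and 9 receptors did not, so these medians leave them out. Members near 0 in controls, such as Cxcl2 with no read there, passed the filter through injured libraries. The counts and medians of members tested thus lean towards rises. In bulk tissue, more cells of a type and more RNA per cell cannot be told apart, here or in any result below.

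The ligands of Ccr2 were among those that rose. Ccl2 had 13.01, 24.7 and 18.5 CPM at day 2, against 0.0837, 0 and 0 CPM in control cortex. Ccl7 had 5.37, 10.9 and 7.43 CPM at day 2, against 0.126, 0 and 0 CPM in controls. Ccl12 had 19.6, 20.1 and 17.4 CPM at day 2, against 0.126, 0 and 0.0416 CPM in controls. All 3 day 2 libraries were far above all control libraries for each of these genes. The counts behind them were 1062 reads against 2 for Ccl2, a 708-fold higher level with a 95% interval of 195 to 5850, and 448 against 3 for Ccl7, a 199-fold higher level with an interval of 67.7 to 969. Intervals and floors here cover counting error only. Both passed edgeR's test (adjusted p = 4.03e-06 and 4.19e-06). Ccl12 rose by 8.32 ± 0.43 on the log2 scale (SE; adjusted p = 7.61e-08), with 7.72 without control cortex library 2 and 9.53 without library 1. These genes lie in 1 cluster with Ccl11 and Ccl8 at chr11:82035571-82116799 (mm10), and 5 of its 5 members rose. Ccl8 had 78 reads at day 2 and none in controls, at least a 34.7-fold higher level against a floor of 3 reads over the group. Ccl11, a ligand of Ccr3 that calls eosinophils, averaged 1.43 ± 0.456 CPM at day 2 and 0.0527 ± 0.0459 CPM in controls (SD, n = 3 each).

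The ligands of Cxcr2 were the next group, and all 4 members in the table rose. Cxcl1 had 13.5, 25.04 and 17.9 CPM at day 2, against 0.126, 0 and 0 CPM in control cortex. Cxcl2 had 1.99, 6.71 and 4.53 CPM at day 2 and 0 in every control library. Cxcl3 had 0.554, 2.15 and 1.29 CPM at day 2, against 0, 0.149 and 0 CPM in controls. Cxcl5 had 1.44, 2.97 and 1.08 CPM at day 2, against 0.209, 0.149 and 0.458 CPM in controls. No library of these 4 genes overlapped between the groups. Cxcl1 was 473-fold higher (95% interval 161 to 2300; adjusted p = 4.52e-07) and Cxcl2 at least 112-fold higher (adjusted p = 6.12e-05). Cxcl3 rose by 4.51 ± 0.98 and Cxcl5 by 2.74 ± 0.57 (log2, SE; adjusted p = 0.00393 and 0.00312), and Cxcl3 by 7.73 without control library 2, which held all its control reads. The 4 genes share a cluster at chr5:90759360-90905938.

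The promoters of Cxcl1, Cxcl2 and Cxcl3 are shown because these clustered genes moved together in both tissues and share a stretch of sequence close to the start. The sequences are the 120 bases before the start, from RefSeq's GRCm38.p6, all on the plus strand. Capitals mark matches to the kappaB consensus, the 10-base motif of NF-kappaB proteins, with 2 matches that overlap by all but 1 base. They begin at -71 and -70 in Cxcl1, -97 and -96 in Cxcl2 and -73 and -72 in Cxcl3, where -1 is the base before the start.
Cxcl1, chr5:90891125-90891244: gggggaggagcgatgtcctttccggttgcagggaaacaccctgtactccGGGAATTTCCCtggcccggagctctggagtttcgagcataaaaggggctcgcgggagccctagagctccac
Cxcl2, chr5:90903779-90903898: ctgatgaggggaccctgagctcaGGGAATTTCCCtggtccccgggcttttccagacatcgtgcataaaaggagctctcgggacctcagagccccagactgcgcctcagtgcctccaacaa
Cxcl3, chr5:90785981-90786100: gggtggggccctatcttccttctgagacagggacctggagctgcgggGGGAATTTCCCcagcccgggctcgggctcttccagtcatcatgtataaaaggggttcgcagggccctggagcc

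The kappaB consensus, searched on both strands by name over the 250 bases before to 50 bases after each start, was found in 8.46% of all 32851 mouse promoters in the table, and in at least 1 promoter of 9.55% of their 27025 genes. Promoters were found for 38 of the 53 members. It stood in 7 of the 21 ligands with a promoter (Ccl9, Ccl20, Ccl27a, Cxcl1, Cxcl2, Cxcl3 and Cxcl10) and in 4 of the 17 receptors (Ackr2, Ccr1, Ccr3 and Ccr6). Of 9 ligands with a promoter that rose in cortex at day 2 it stood in 5, of 2 that fell in 1, of 5 that were tested and not called in none, and of 5 not tested in 1. In bone at day 2 it stood in 4 of 9 that rose, 1 of 1 that fell, 1 of 9 not called and 1 of 2 not tested. A match says only that the letters are present.

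Ligands of Ccr1 and their relatives rose as well. Ccl6 had 16.7, 37.6 and 21.1 CPM at day 2, against 0.419, 1.04 and 1.08 CPM in control cortex. Ccl9 had 13.8, 21.4 and 14.8 CPM at day 2, against 0.209, 0 and 0.166 CPM in controls. Ccl3 had 2.44, 5.84 and 6.63 CPM at day 2, against 0, 0.260 and 0.0832 CPM in controls. Day 2 and control libraries did not overlap in any of these. The log2 changes were 4.87 ± 0.40 for Ccl6, 7.04 ± 0.73 for Ccl9 and 5.31 ± 0.77 for Ccl3 (SE; adjusted p = 8.89e-06, 0.000109 and 0.000541). Ccl9 came to 6.42 and Ccl3 to 6.69 without control library 2. Ccl4, the close relative of Ccl3, had 2.60, 2.82 and 2.37 CPM at day 2, against 0, 0.0372 and 0.208 CPM in controls (log2 change 4.91 ± 0.87, adjusted p = 0.00113; 6.65 without control library 3). These 4 genes and Ccl5 lie at chr11:83525778-83664683, and 4 of the 4 tested rose. Ccl5, known from T cells, did not pass the filter, with 8 reads at day 2 and 1 in controls.

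Cxcl10 and Cxcl16 were the other CXC ligands that rose. Cxcl10, an interferon-induced ligand of Cxcr3, had 3.99, 5.38 and 4.04 CPM at day 2, against 0.126, 0 and 0 CPM in control cortex. That was a 112-fold higher level (95% interval 37.9 to 547; adjusted p = 1.08e-05). Its receptor Cxcr3 did not pass the filter, and its neighbours Cxcl9 and Cxcl11 did not either. Cxcl16 had 9.19, 15.1 and 12.98 CPM at day 2, against 1.84, 1.08 and 1.54 CPM in controls, with no overlap. It rose by 3.07 ± 0.30 (log2, SE; adjusted p = 1.14e-05). Cxcl16 shares 18.3% of its exonic bases with Zmynd15 on the other strand, which averaged 3.23 CPM at day 2 and 0.832 CPM in controls.

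Cxcl10 and Cxcl14 are shown because they were the 2 of 21 ligand promoters with an interferon-stimulated response element, searched on both strands as GAAA, any 2 bases (NN) and GAAA. That element was in 3.44% of all promoters and in 3.99% of genes. Both sequences are the 250 bases before the start on the minus strand (RefSeq, GRCm38.p6), and capitals mark matches to this element or to the kappaB consensus. In Cxcl10 the element begins at -213 and kappaB matches at -159, -104 and -103, and in Cxcl14 the element begins at -172 with no kappaB match.
Cxcl10, chr5:92348890-92349139: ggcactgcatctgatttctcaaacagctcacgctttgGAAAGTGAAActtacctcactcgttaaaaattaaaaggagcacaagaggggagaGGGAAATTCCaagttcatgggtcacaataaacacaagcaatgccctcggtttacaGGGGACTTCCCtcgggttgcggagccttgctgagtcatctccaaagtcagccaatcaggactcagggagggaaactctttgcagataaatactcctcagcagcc
Cxcl14, chr13:56296552-56296801: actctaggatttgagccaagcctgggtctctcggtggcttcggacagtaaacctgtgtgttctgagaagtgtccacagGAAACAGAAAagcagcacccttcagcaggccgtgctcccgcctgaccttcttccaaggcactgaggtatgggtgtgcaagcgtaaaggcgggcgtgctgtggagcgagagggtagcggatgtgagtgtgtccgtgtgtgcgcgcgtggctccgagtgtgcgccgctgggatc

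The ligands that fell in cortex at day 2 were Cx3cl1 and Ccl27a, the first and the third by RPKM in control cortex. Cx3cl1 had 312, 347 and 386 CPM at day 2, against 525, 659 and 714 CPM in control cortex. Ccl27a had 17.4, 18.5 and 24.2 CPM at day 2, against 34.6, 52.6 and 54.3 CPM in controls. Neither overlapped between the groups. Cx3cl1 fell by 0.86 on the log2 scale (SE 0.13, adjusted p = 0.000356) and Ccl27a fell by 1.23 (SE 0.18, adjusted p = 0.000292). The neuron marker list summed to 3570 to 4580 CPM at day 2 and 5470 to 7300 CPM in controls, and its part in these falls was not tested. Cxcl14 averaged 84.8 ± 16.7 CPM at day 2 and 109 ± 6.56 CPM in controls (SD, n = 3 each) and missed the threshold (adjusted p = 0.0512). It was called lower with RLE factors, without the filter, with the replicate block and by DESeq2 (adjusted p of 0.0299 to 0.0404) and without day 2 library 2 (0.0042), and reached 0.159 without day 2 library 1. Cxcl12 averaged 74.2 ± 15 CPM at day 2 and 59.8 ± 4.72 CPM in controls (adjusted p = 0.177; 0.0444 with the replicate block). Ccl17, Ccl24, Ccl25 and Ccl28 were not called. Ccl27a belongs to a family of near-identical copies in the mouse genome, so the split of reads between copies is uncertain.

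**Figure D1:**
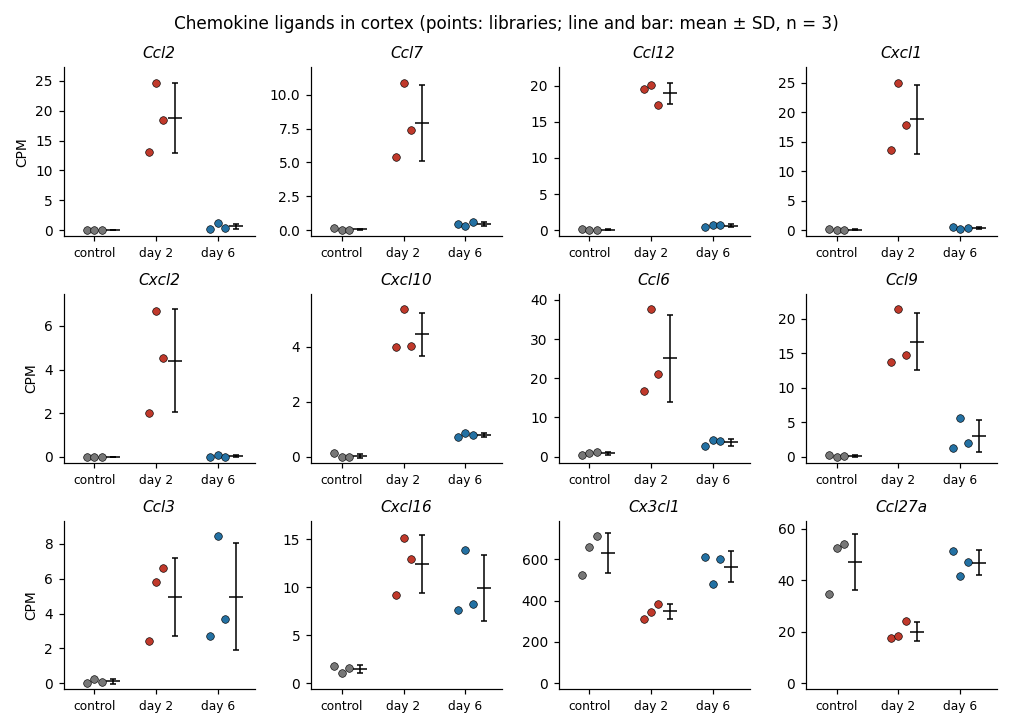
Levels of chemokine ligands in cortex, 1 panel a gene, in CPM, for control, day 2 and day 6 libraries (points, 3 a group) with the group mean and SD. Ccl2 stood at 13.01 to 24.7 CPM at day 2 and at or below 1.14 CPM in every other library, while Cxcl16 stayed between 7.67 and 13.9 CPM at day 6.

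Among the receptors that rose in cortex at day 2, Cxcr2, Ccr2 and Ccr1 have ligands above that rose. Cx3cr1 and Cxcr4 rose as well, though Cx3cl1 fell and Cxcl12 was not called. Cxcr3 and Cxcr6, receptors of Cxcl10 and Cxcl16, did not pass the filter. Cxcr2, the neutrophil receptor, had 6.70, 11.2 and 8.51 CPM at day 2, against 0, 0 and 0.0416 CPM in control cortex. Ccr2, the monocyte receptor, had 15.1, 25.04 and 20.4 CPM at day 2, against 0.921, 0.855 and 0.333 CPM in controls. Ccr1 had 15.2, 20.02 and 13.7 CPM at day 2, against 1.17, 0.223 and 0.0832 CPM in controls. In all 3 genes every day 2 library was above every control library. Cxcr2 was 662-fold higher (497 reads against 1; 95% interval 118 to 26200; adjusted p = 1.14e-06). Ccr2 rose by 4.83 ± 0.36 and Ccr1 by 5.05 ± 0.61 on the log2 scale (SE; adjusted p = 2.07e-06 and 0.000251), and Ccr1 by 6.66 without control library 1.

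The receptors that control cortex already carried rose by less. Cx3cr1 had 71.1, 90.8 and 90.7 CPM at day 2, against 43.5, 32.4 and 39.4 CPM in controls, a rise of 1.13 ± 0.22 (adjusted p = 0.00493). Cxcr4 had 4.21, 7.63 and 5.66 CPM at day 2, against 1.97, 1.26 and 1.25 CPM in controls, a rise of 1.97 ± 0.35 (adjusted p = 0.00115). Neither overlapped between the groups. The receptors tested and not called were the atypical receptors Ackr1, Ackr2, Ackr3 and Ackr4 and the lymphocyte receptors Ccr6 and Ccr9, with log2 changes of -0.34 to 0.54 and adjusted p of 0.129 to 0.904.

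Marker lists of blood and resident myeloid cells moved with these results. The sum over 8 neutrophil markers was 70.7 to 90.5 CPM at day 2 and 7.51 to 11.5 CPM in control cortex, and Ly6g, the defining marker, was at 0 in 2 of the 3 day 2 libraries. The sum over 6 monocyte markers, of which Ccr2 is one, was 26.4 to 44.7 CPM at day 2 and 0.957 to 1.37 CPM in controls, with F10 at 0 in 3 of 3 control libraries. Ccr2 alone had 15.1 to 25 CPM of that sum at day 2 and 0.333 to 0.921 CPM in controls. The sum over 6 microglia markers was 267 to 281 CPM at day 2 and 156 to 175 CPM in controls, and that over 6 markers of border macrophages was 139 to 226 and 19.1 to 30.8 CPM. No microglia or border macrophage marker was at 0 in any cortex library. The part of any of these cells in the chemokine results was not tested.

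**Figure D2:**
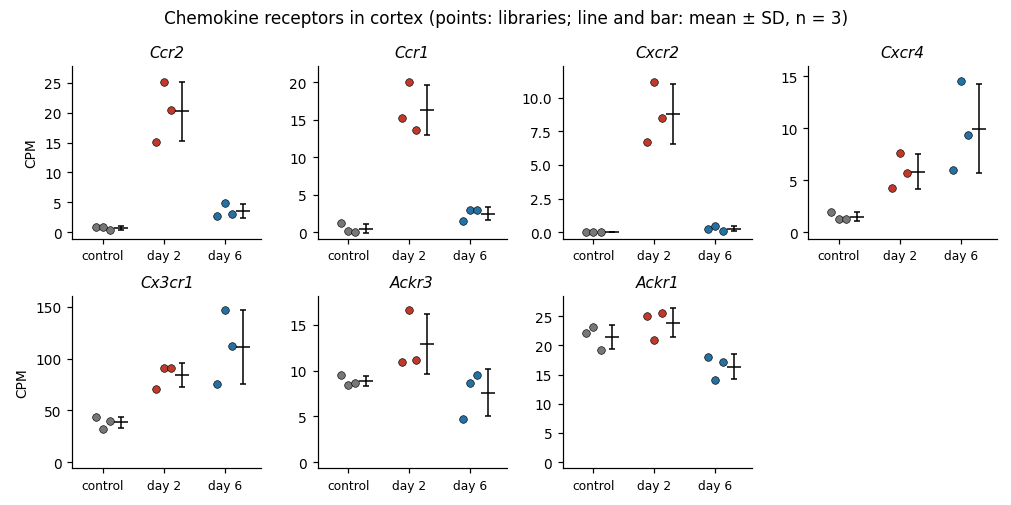
Levels of chemokine receptors in cortex, in CPM, for control, day 2 and day 6 libraries (points, 3 a group) with the group mean and SD. Ccr2 and Cxcr2 peaked at day 2, while Cx3cr1 and Cxcr4 stood above every control library at both times.

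At day 6, 12 of the 23 ligands tested and 6 of the 12 receptors were higher than in control cortex and none was lower, where 10.3% of all genes were called, 7.93% as higher, and 30.9% did not overlap between the groups, as did 12 ligands and 7 receptors. The median log2 change was 2.75 over the ligands and 0.69 over the receptors, beside -0.0183 over all genes. The control libraries are the same as for day 2. The clearest rise was that of Cxcl16, with 7.67, 13.9 and 8.31 CPM at day 6, against 1.84, 1.08 and 1.54 CPM in controls, a log2 change of 2.75 ± 0.30 (SE; adjusted p = 9.20e-05). Ccl3 had 2.73, 8.46 and 3.71 CPM at day 6, against 0, 0.260 and 0.0832 CPM in controls (5.32 ± 0.77, adjusted p = 0.00142; 4.68 without day 6 library 2 and 6.71 without control library 2). Neither overlapped between the groups. Ccl9 had 1.29, 5.58 and 2.02 CPM (4.58 ± 0.78, adjusted p = 0.00459; 3.67 without day 6 library 2, and 5.18 and 3.97 without control libraries 1 and 2) and Ccl6 had 2.73, 4.30 and 3.96 CPM (2.09 ± 0.40, adjusted p = 0.00609). Cxcl12 had 74.2, 110 and 92.6 CPM at day 6, against 56.1, 65.1 and 58.0 CPM in controls (0.63 ± 0.16, adjusted p = 0.0237). Cxcl14, Cx3cl1 and Ccl27a were not called, and their log2 changes lay between -0.16 and -0.01.

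Several of the day 6 calls rested on few reads or on 1 library. Ccl2 had 0.257, 1.14 and 0.404 CPM at day 6 (35 reads, against 2 in controls), Ccl7 22 reads against 3, and Ccl12 0.360, 0.686 and 0.727 CPM, all above the controls. Ccl12 passed the test (log2 change 3.30 ± 0.60, adjusted p = 0.00274, with 4.52 and 2.71 without control libraries 1 and 2). The calls of Ccl2, Ccl4, Ccl7, Ccl8, Cxcl1 and Cxcl12 were each lost without 1 of 3 to 5 libraries, with adjusted p of up to 0.0738, 0.137, 0.0919, 0.315, 0.141 and 0.113. Those libraries were control cortex 2 for Ccl2, Ccl4, Ccl7, Ccl8 and Cxcl1, control 3 for Ccl2, Ccl7, Ccl8, Cxcl1 and Cxcl12, and control 1 for Ccl8 and Cxcl12. They were also day 6 library 1 for Ccl7 and Cxcl1, day 6 library 2 for Ccl2, Ccl4, Ccl8, Cxcl1 and Cxcl12, and day 6 library 3 for Ccl4, Ccl7, Cxcl1 and Cxcl12. Ccr1 lost its call without control 2 or 3 or day 6 library 2 or 3 (adjusted p of 0.0717 to 0.165), and Cxcr2 without control 2 or day 6 library 2 (0.0771 and 0.141). In all, 11 members were called without control cortex 2, 12 without control 3 and 11 without day 6 library 2, in place of 18.

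Among receptors the order had changed by day 6. Cxcr4 had 5.97, 14.5 and 9.36 CPM at day 6, against 1.97, 1.26 and 1.25 CPM in control cortex, a rise of 2.74 ± 0.35 (log2, SE; adjusted p = 0.000341). Cx3cr1 had 75.4, 147 and 112 CPM at day 6, against 43.5, 32.4 and 39.4 CPM in controls, a rise of 1.53 ± 0.22 (adjusted p = 0.00226). Ccr2 had 2.68, 4.94 and 3.07 CPM (2.34 ± 0.36, adjusted p = 0.00117). All 3 were above their control libraries without overlap. Ackr3 averaged 7.60 ± 2.57 CPM at day 6 and 8.88 ± 0.556 CPM in controls and was not called (adjusted p = 0.633). In RPKM, Cx3cr1 led the receptors of cortex at day 6 with 24.7 ± 7.89, followed by Ackr1 with 11.7 ± 1.5 and Cxcr4 with 5.50 ± 2.38 (SD, n = 3 each), and the libraries of these 3 did not overlap. The place of Ackr1 has the limit of bases shared with Cadm3 given above.

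Set against day 2 directly, the monocyte and neutrophil ligands had fallen by day 6. Of 23 ligands 9 fell and 2 rose, and of 12 receptors 5 fell and none rose, where 11.6% of all genes were called, 5.3% as higher and 6.26% as lower, and 30.5% did not overlap between the times, as did 15 ligands and 7 receptors. The log2 changes were -5.02 ± 0.33 for Ccl12, -5.78 ± 0.43 for Cxcl1, -4.87 ± 0.47 for Ccl2 and -4.22 ± 0.49 for Ccl7 (SE; adjusted p = 3.75e-06, 1.06e-05, 0.000147 and 0.000221), with -5.86 for Ccl2 without day 6 library 2. Cxcl2 had 2 reads at day 6, against 251 at day 2, a 120-fold lower level with a 95% interval of 32.9 to 996, and Cxcl3 had 2, against 76. Ccl6 and Cxcl10 fell too, with changes of -2.78 ± 0.35 and -2.47 ± 0.45 (adjusted p = 0.000725 and 0.00403). Of the receptors Cxcr2 changed by -4.99 ± 0.46 (adjusted p = 5.36e-05; -5.77 without day 6 library 2), Ccr2 by -2.49 ± 0.31 and Ccr1 by -2.72 ± 0.52 (adjusted p = 0.000371 and 0.00981). In each of the genes named here, every day 6 library was below every day 2 library.

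The other members described were not called between the times, rose, or fell with a call that 1 library could end. Ccl3 averaged 4.97 ± 3.07 CPM at day 6 and 4.97 ± 2.23 CPM at day 2 (SD, n = 3 each; log2 change 0.01 ± 0.53, adjusted p = 0.991), and its libraries overlapped. The sign of that value was negative in the fits without day 2 library 1 (-0.31) and without day 6 library 2 (-0.64). Cxcl16 (-0.31 ± 0.26, adjusted p = 0.491), Cx3cr1 (0.40 ± 0.22, adjusted p = 0.283) and Cxcr4 (0.77 ± 0.32, adjusted p = 0.145) were not called either. Ccl27a had 51.5, 41.8 and 47.2 CPM at day 6, against 17.4, 18.5 and 24.2 CPM at day 2, and rose by 1.22 ± 0.18 (adjusted p = 0.00135). Cx3cl1 had 612, 479 and 602 CPM at day 6, against 312, 347 and 386 CPM at day 2, and rose by 0.70 ± 0.13 (adjusted p = 0.00482). Ackr1 fell by 0.55 (SE 0.14, adjusted p = 0.0254), a call lost without day 2 library 1 or 3 or day 6 library 2 or 3, with adjusted p of 0.0644 to 0.0939. Ccl9 changed by -2.46 ± 0.51 (adjusted p = 0.0142; -3.36 without day 6 library 2) and lost its call without day 6 library 3 (0.0711), as did Cxcl3 (0.0580). Over these times the neutrophil marker sum was 33.2 to 44.6 CPM at day 6 and 70.7 to 90.5 CPM at day 2, the monocyte sum 2.93 to 7.37 and 26.4 to 44.7 CPM, and the microglia sum 300 to 442 and 267 to 281 CPM. Their part was not tested.

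The bone responded with another leading ligand. At day 2, 12 of 26 ligands tested were higher and 1 was lower than in control bone, and of 17 receptors 5 were higher and 3 lower, where 34.4% of all 17450 genes tested were called, 17.8% as higher and 16.6% as lower, and 47.7% did not overlap between the groups, as did 15 of the 26 ligands and 13 of the 17 receptors. The median log2 change was 0.58 over the ligands tested and -0.41 over the receptors tested, beside -0.0101 over all genes. Cxcl14, a ligand made by many epithelia and connective tissues whose receptor is less settled, had 612, 767 and 542 CPM at day 2, against 94.1, 47.3 and 72.4 CPM in control bone. It rose by 3.17 ± 0.24 (log2, SE; adjusted p = 0.000106). Its promoter is the Cxcl14 line above. Cxcl12 had 723, 706 and 725 CPM at day 2, against 375, 301 and 356 CPM in controls, and rose by 1.06 ± 0.11 (adjusted p = 0.000267). Neither gene overlapped between the groups. In RPKM Cxcl14 reached 351 ± 63.1 at day 2, ahead of Cxcl12 at 87.8 ± 1.23 (SD, n = 3 each) with no overlap. In control bone they had stood at 39.0 and 42.1 RPKM.

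Marker lists of the bone itself were higher at day 2 as well. The sum over the 4 osteoblast markers in the table was 7980 to 9330 CPM at day 2 and 1300 to 1720 CPM in control bone. The sum over 5 markers of the Cxcl12-rich stromal cells of marrow, with Cxcl12 among them, was 891 to 963 and 474 to 556 CPM. Cxcl12 alone had 706 to 725 CPM at day 2 and 301 to 375 CPM in controls. Most of this sum is thus Cxcl12 itself, and the list is no separate measure of these cells. No marker of either list was at 0 in a bone library. Their part in the rise of Cxcl14 and Cxcl12 was not tested.

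The ligands of Cxcr2 rose in bone as in cortex. Cxcl1 had 16.7, 8.46 and 16.3 CPM at day 2, against 1.48, 0.742 and 0.955 CPM in control bone. Cxcl5 had 17.4, 13.7 and 26.3 CPM at day 2, against 1.21, 0.405 and 0.818 CPM in controls. Cxcl3 had 3.32, 4.99 and 9.26 CPM at day 2 and no read in controls, and Cxcl2 had 4.00, 4.93 and 36.2 CPM, against 1 read over all controls. No library overlapped in these 4 genes, and the third day 2 library held the highest value of 3 of them. Cxcl1 rose by 3.69 ± 0.42 and Cxcl5 by 4.55 ± 0.53 (log2, SE; adjusted p = 0.000323 and 0.000506). Cxcl3 was at least 87.1-fold higher against the floor of 3 reads (adjusted p = 0.000803). Cxcl2 was 674-fold higher, with a 95% counting interval of 121 to 26700 (adjusted p = 0.00269). Its fitted log2 change of 8.91, which depends on how a count of 0 is handled, was 7.15 without day 2 library 3 and 10.77 without control library 2. All 4 of the 4 genes in their cluster were thus called in both tissues at day 2, and the kappaB matches of Cxcl1, Cxcl2 and Cxcl3 are printed above.

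The CC ligands that rose in bone started from control means of 0.855 CPM (Ccl3) to 43.8 CPM (Ccl9). In the cluster of Ccl2, 3 of 5 members rose. Ccl8 (log2 change -0.29 ± 0.47, SE) and Ccl11 (0.60 ± 0.55) were not called. Ccl2 had 17.1, 22.8 and 25.7 CPM at day 2, against 1.28, 4.39 and 1.57 CPM in control bone (3.18 ± 0.42, adjusted p = 0.000815; 3.94 without control library 2). Ccl7 had 26.1, 28.2 and 42.1 CPM at day 2, against 0.671, 5.73 and 1.77 CPM in controls (3.55 ± 0.69, adjusted p = 0.00658; 4.71 without control library 2). Ccl12 had 3.52, 6.52 and 10.3 CPM at day 2, against 1.21, 2.90 and 2.18 CPM in controls (1.69 ± 0.47, adjusted p = 0.0205). In each of these ligands of Ccr2 every day 2 library was above every control library. Ccl6 averaged 85.7 ± 14.9 CPM at day 2 and 30.9 ± 8.01 CPM in controls, and Ccl9 149 ± 18.1 and 43.8 ± 21.4 CPM (SD, n = 3 each), with log2 changes of 1.47 ± 0.24 and 1.77 ± 0.34 (adjusted p = 0.00232 and 0.00589). Ccl3 had 1.76, 3.33 and 12.8 CPM at day 2, against 0.806, 1.21 and 0.546 CPM in controls (2.79 ± 0.77, adjusted p = 0.0228). Without day 2 library 3 the change of Ccl3 was 1.56 with an adjusted p of 0.0681, and the call was also lost without control library 1 or 3 (up to 0.0856). Ccl12 lost its call without control library 1 or 3 or day 2 library 3 (adjusted p of 0.0608 to 0.0819).

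Of the other bone ligands, 13 were not called and 1 fell. Ccl27a was the 1 ligand that fell, with 0.677, 0.666 and 0.657 CPM at day 2, against 3.29, 3.10 and 3.61 CPM in control bone, a fall of 2.31 on the log2 scale (SE 0.27, adjusted p = 0.000388). Its receptor Ccr10 averaged 1.31 ± 0.493 CPM at day 2 and 2.32 ± 0.480 CPM in controls and was not called (adjusted p = 0.0896). The neuron marker sum was 442 to 476 CPM in control bone, 30.9 to 119 CPM at day 2 and 66.8 to 92.4 CPM at day 4. Its part in the bone levels of Ccl27a and Cx3cl1 was not tested. Ccl21a, a ligand of Ccr7 that guides T cells and dendritic cells, had 1.08, 0 and 2.36 CPM at day 2, against 5.71, 0.540 and 5.18 CPM in controls, which overlapped (adjusted p = 0.239). Like Ccl27a it has near-identical copies. Cxcl13, the ligand of Cxcr5 on B cells, averaged 3.56 ± 1.96 and 3.93 ± 2.11 CPM (adjusted p = 0.855), and Ccl11 and Ccl24, ligands of Ccr3, were not called (adjusted p = 0.426 and 0.440). Cx3cl1 averaged 39.6 ± 2.24 CPM at day 2 and 42.4 ± 11.9 CPM in controls (adjusted p = 0.702), and Cxcl16 18.1 ± 0.190 and 21.9 ± 2.62 CPM (adjusted p = 0.107). Cxcl10, which rose in cortex, averaged 1.97 ± 0.990 and 1.33 ± 1.09 CPM (adjusted p = 0.541).

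**Figure D3:**
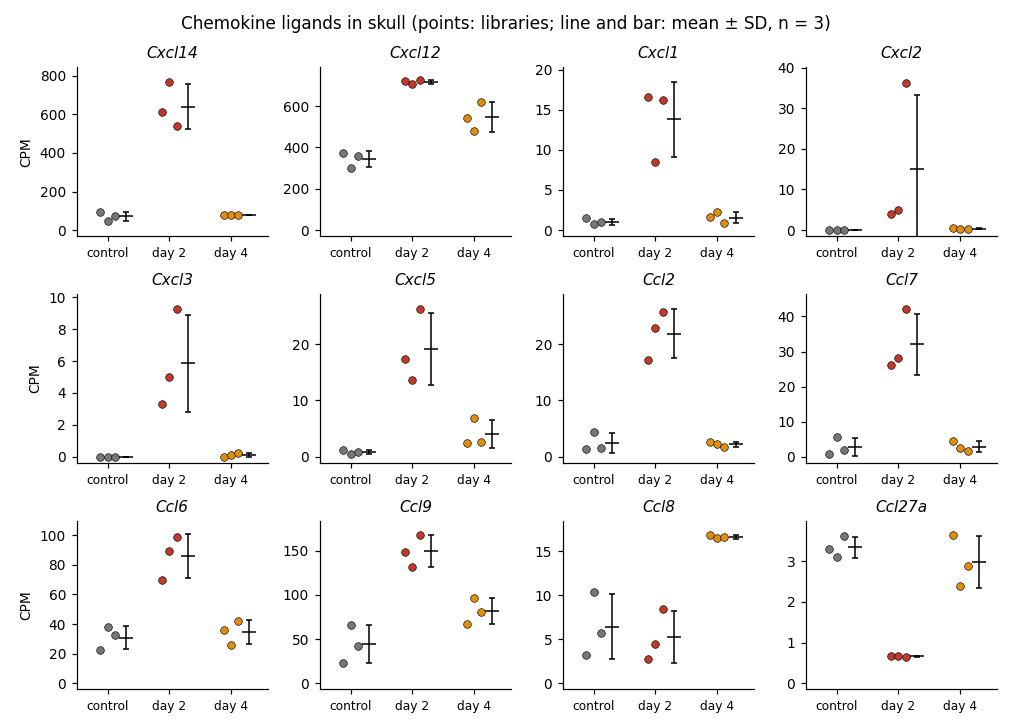
Levels of chemokine ligands in interparietal bone, in CPM, for control, day 2 and day 4 libraries (points, 3 a group) with the group mean and SD. Cxcl14 stood at 542 to 767 CPM at day 2 and at or below 94.1 CPM in every control and day 4 library, and Cxcl2 was set apart by 1 day 2 library at 36.2 CPM.

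Receptors of bone moved in both directions at day 2. Ccr2 had 76.8, 73.3 and 76.8 CPM at day 2, against 35.5, 42.0 and 37.6 CPM in control bone, a rise of 0.98 ± 0.10 (log2, SE; adjusted p = 0.000168). Ackr3, which removes Cxcl12, had 43.3, 41.7 and 52.5 CPM at day 2, against 24.2, 22.9 and 21.0 CPM in controls, a rise of 1.01 ± 0.12 (adjusted p = 0.000347). Ccr3, the eosinophil receptor, had 9.01, 6.13 and 12.2 CPM at day 2, against 2.28, 2.90 and 2.11 CPM in controls, a rise of 1.90 ± 0.30 (adjusted p = 0.00145). None of these overlapped between the groups. Ccr1 averaged 68.6 ± 12.1 CPM at day 2 and 23.4 ± 5.90 CPM in controls (SD, n = 3 each), a rise of 1.55 ± 0.25 (adjusted p = 0.00241). The monocyte marker sum, with Ccr2 in it, was 203 to 229 CPM at day 2 and 86.5 to 112 CPM in controls, and its part was not tested.

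The receptors that fell in bone were Cx3cr1, Ccr7 and Cxcr5. These are 3 of 17 tested, a share near the 16.6% of all genes called lower. Cx3cr1 had 12.9, 13.6 and 10.8 CPM at day 2, against 29.6, 28.8 and 30.0 CPM in control bone, a fall of 1.25 on the log2 scale (SE 0.12, adjusted p = 0.000140). Cxcr5, the receptor that guides B cells, had 1.02, 0.666 and 0.854 CPM at day 2, against 1.68, 2.70 and 2.39 CPM in controls, a fall of 1.41 (SE 0.38, adjusted p = 0.0173). Ccr7 had 1.35, 2.40 and 2.50 CPM at day 2, against 3.56, 3.71 and 3.68 CPM in controls, a fall of 0.81 (SE 0.28, adjusted p = 0.0475). The groups did not overlap in any of the 3. The call of Ccr7 was lost without any 1 of the 6 libraries compared (adjusted p of 0.0578 to 0.147), and that of Cxcr5 without control library 3 or day 2 library 2 or 3 (0.0536 to 0.0631). The sum over 6 B cell markers was 51.8 to 61.7 CPM at day 2 and 111 to 146 CPM in controls, with Vpreb1 at 0 in 1 control library, and its part was not tested. Cxcr4 averaged 16.2 ± 0.774 CPM at day 2 and 18.3 ± 3.68 CPM in controls (adjusted p = 0.535), and Cxcr2 38.6 ± 3.36 and 24.0 ± 9.02 CPM (adjusted p = 0.115), so that neither was called.

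**Figure D4:**
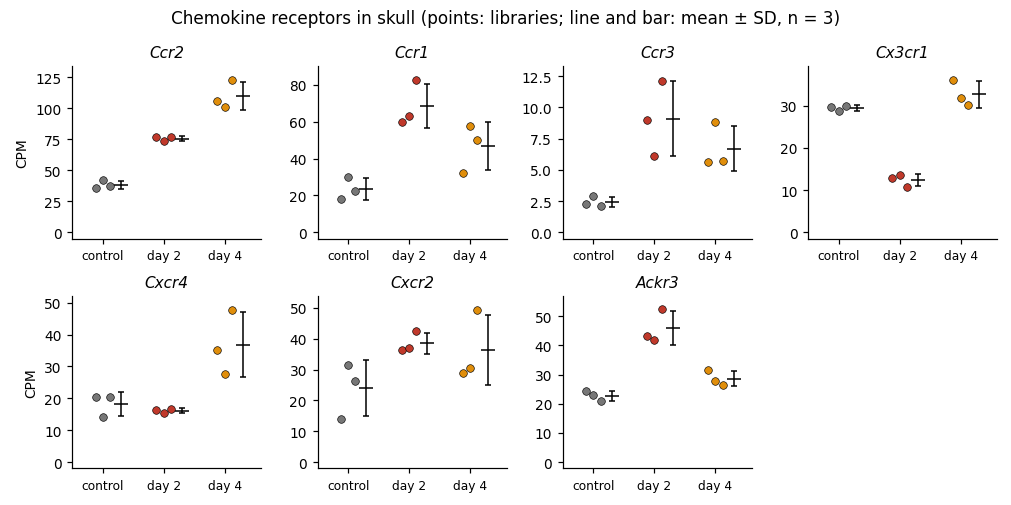
Levels of chemokine receptors in interparietal bone, in CPM, for control, day 2 and day 4 libraries (points, 3 a group) with the group mean and SD. Cx3cr1 stood at 10.8 to 13.6 CPM at day 2 and at 28.8 CPM or more in all other libraries, and Ccr2 was above its controls at both times.

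By day 4 most bone ligands were not called against control bone, which does not show a return to the control level. The receptors of marrow cells were the larger part of what was called. Of 26 ligands 2 were higher and 1 lower than in control bone, and of 17 receptors 4 were higher and 1 lower, where 10.6% of all genes were called, 5.83% as higher and 4.79% as lower, and 31.1% did not overlap between the groups, as did 8 ligands and 11 receptors. The control libraries are those of day 2. The median log2 change was 0.31 over the ligands and 0.15 over the receptors, beside 0.0156 over all genes. Ccr2 had 106, 101 and 123 CPM at day 4, against 35.5, 42.0 and 37.6 CPM in controls, a rise of 1.52 ± 0.10 (log2, SE; adjusted p = 0.000417). Cxcr4 had 35.0, 27.7 and 47.8 CPM at day 4, against 20.3, 14.03 and 20.5 CPM in controls, a rise of 1.01 ± 0.21 (adjusted p = 0.0199). Its ligand Cxcl12 had 541, 477 and 622 CPM at day 4, against 375, 301 and 356 CPM in controls, a rise of 0.67 ± 0.11 (adjusted p = 0.0130). None of the 3 genes overlapped between the groups. The ligands of Ccr2 were not called, with Ccl2 at 2.19 ± 0.436 CPM at day 4 and 2.41 ± 1.72 CPM in controls, Ccl7 at 2.84 ± 1.5 and 2.73 ± 2.66 CPM and Ccl12 at 2.98 ± 1.15 and 2.1 ± 0.849 CPM (adjusted p = 0.880, 0.962 and 0.537). Log2 changes of all ligands not called ran from -2.28 to 3.65. Ccl8 averaged 16.6 CPM at day 4 and 6.43 CPM in controls, and Ccl9 81.4 and 43.8 CPM (edgeR adjusted p = 0.0957 and 0.128). DESeq2 called Ccl8, Ccl9 and Cxcl2 higher at day 4 (adjusted p = 0.0205, 0.0223 and 0.0452).

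The other day 4 calls in bone were small or rested on 1 library. Ccr3 had 5.64, 8.81 and 5.68 CPM at day 4, against 2.28, 2.90 and 2.11 CPM in control bone (1.46 ± 0.30, adjusted p = 0.0203). Cxcl5 had 2.50, 6.83 and 2.65 CPM at day 4, against 1.21, 0.405 and 0.818 CPM in controls (2.28 ± 0.53, adjusted p = 0.0308; 1.66 without day 4 library 2). Cxcr5 had 0.641, 0.329 and 0.856 CPM at day 4, against 1.68, 2.70 and 2.39 CPM in controls, and fell by 1.87 (SE 0.39, adjusted p = 0.0216). Cx3cl1 had 24.1, 26.4 and 26.2 CPM at day 4, against 53.1, 29.6 and 44.3 CPM in controls, and fell by 0.73 (SE 0.18, adjusted p = 0.0338). The groups did not overlap in these 4 genes. Without control library 3 or day 4 library 3 the calls of Cxcl12, Cxcl5, Cx3cl1, Cxcr4, Ccr1, Ccr3 and Cxcr5 were all lost, and 1 member, Ccr2, was called in each case in place of 8. Over all genes 10 were called without control library 3 and 237 without day 4 library 3, in place of 1853, and 591 without day 4 library 2. Without day 4 library 2, the calls of Cxcl5, Cx3cl1, Ccr1, Ccr3 and Cxcr5 were lost and 3 members were called. Cxcl5 was also lost without control library 2, Cx3cl1 without control 1 and day 4 library 1, and Ccr1 without control 1, and over all of these the adjusted p lay between 0.0522 and 0.139. Cx3cr1 averaged 32.7 ± 3.14 CPM at day 4 and 29.5 ± 0.611 CPM in controls (SD, n = 3 each; adjusted p = 0.433), and Ackr3 28.6 ± 2.57 and 22.7 ± 1.63 CPM (adjusted p = 0.0955). The B cell marker sum was 90.3 to 141 CPM at day 4 and 111 to 146 CPM in controls, while the neutrophil sum was 3380 to 6280 and 1080 to 1910 CPM, and the part of neither was tested.

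Between day 4 and day 2 of bone, 10 of 26 ligands were lower and 2 higher at day 4, and of 17 receptors 2 were lower and 3 higher, where 21.6% of all genes were called, 10.6% as higher and 11.1% as lower, and 42.6% did not overlap between the times, as did 16 ligands and 8 receptors. Cxcl14 had 78.2, 80.4 and 77.8 CPM at day 4, against 612, 767 and 542 CPM at day 2, and fell by 3.02 on the log2 scale (SE 0.24, adjusted p = 0.000208). Cxcl1, Ccl2 and Ccl6 changed by -3.14 ± 0.40, -3.31 ± 0.43 and -1.30 ± 0.24 (adjusted p = 0.000992, 0.00135 and 0.00688). Cxcl3 had 4 reads at day 4, against 265 at day 2 (adjusted p = 0.00258). None of these genes overlapped between the times, and all 4 Cxcr2 ligands were lower at day 4. The osteoblast marker sum was 2280 to 4400 CPM at day 4 and 7980 to 9330 CPM at day 2, and its part was not tested.

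Against that fall, some members were higher at day 4 than at day 2 in bone. Cx3cr1 had 36.2, 31.8 and 30.1 CPM at day 4, against 12.9, 13.6 and 10.8 CPM at day 2, a rise of 1.40 ± 0.12 (log2, SE; adjusted p = 0.000142). Cxcr4 rose by 1.19 ± 0.21 and Ccr2 by 0.54 ± 0.09 (adjusted p = 0.00433 and 0.00398). Ccl27a had 3.65, 2.39 and 2.88 CPM at day 4, against 0.677, 0.666 and 0.657 CPM at day 2, a rise of 2.15 ± 0.27 (adjusted p = 0.000972). Ccl8, a CC ligand of the Ccl2 cluster, had 16.9, 16.5 and 16.6 CPM at day 4, against 2.78, 4.46 and 8.47 CPM at day 2. All 5 genes were higher in every day 4 library than in any day 2 library. The rise of Ccl8 was 1.66 ± 0.47 (adjusted p = 0.0375), with the call lost without day 2 library 1 or 2 or any day 4 library (adjusted p of 0.0778 to 0.109). Ackr3 changed by -0.68 ± 0.12 (adjusted p = 0.00378). Cxcl12 changed by -0.39 ± 0.11 and Cx3cl1 by -0.63 ± 0.18 (adjusted p = 0.0348 and 0.0325), with adjusted p of 0.0740 to 0.1 for Cxcl12 without any 1 library but day 4 library 3, and 0.0723 to 0.108 for Cx3cl1 without any 1 library.

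Day 2 was the time sampled in both tissues, and the difference of the day 2 responses was tested there as an interaction over 12 libraries. Of 28 ligands tested the response was higher in cortex for 10 and lower for 2, and of 18 receptors it was higher for 7 and lower for none, where 17.6% of all 18863 genes were called, 14% as higher and 3.6% as lower in cortex. A higher response is not always a larger rise. Ccl27a, among the 10, fell in both tissues, with log2 changes of -1.23 in cortex and -2.31 in bone. Ccr7, among the 7, had 6 reads at day 2 and 0 in control cortex, and fell in bone. The median difference over all genes was 0.20 on the log2 scale (0.135 with RLE factors), and that over the members was 1.90 for ligands and 1.92 for receptors. Cxcl14 had a log2 change of -0.36 ± 0.12 in cortex, which was not called, and 3.17 ± 0.24 in bone, a difference of -3.46 ± 0.34 (SE; adjusted p = 8.95e-05). Cx3cr1 rose in cortex by 1.13 ± 0.22 and fell in bone by 1.25 (SE 0.12), a difference of 2.43 ± 0.20 (adjusted p = 2.79e-05). Cxcl16 changed by 3.07 ± 0.30 in cortex and -0.27 ± 0.12 in bone, a difference of 3.39 ± 0.30 (adjusted p = 4.29e-05). Cxcr4 changed by 1.97 ± 0.35 in cortex and -0.18 ± 0.21 in bone, a difference of 2.20 ± 0.36 (adjusted p = 0.00193). Ccr2 rose in both, by 4.83 ± 0.36 in cortex and 0.98 ± 0.10 in bone, with a difference of 3.90 ± 0.34 (adjusted p = 4.26e-05).

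For the ligands near 0 in control cortex the fitted size of the difference depends on how a count of 0 is handled and is no bound, so the call and the sign are given here. The day 2 response was higher in cortex for Ccl2, Ccl12, Ccl6 and Ccl9 and for Cxcr2 (adjusted p = 0.00205, 0.000284, 0.00152, 0.00108 and 4.39e-05). Over these members, cortex started from 0.0139 to 0.847 CPM on average in controls and bone from 2.1 to 43.8 CPM. At day 2 itself Ccl2 averaged 18.8 ± 5.86 CPM in cortex and 21.9 ± 4.38 CPM in bone, and Cxcl1 18.8 ± 5.82 and 13.8 ± 4.63 CPM (SD, n = 3 each), each scaled within its tissue. Cxcl12 was the other ligand with a lower response in cortex, 0.31 ± 0.16 there against 1.06 ± 0.11 in bone (difference -0.69 ± 0.20, adjusted p = 0.0323). That call was lost without cortex control 2 or 3, cortex day 2 library 1 or 3, bone control 3 or any day 2 bone library (adjusted p of 0.0556 to 0.0763). No difference of response was called for Cxcl2, Cxcl3, Cxcl5, Ccl3, Ccl4 or Ccl7, whose adjusted p by edgeR's test lay between 0.0679 and 0.832, which does not show equal responses. DESeq2 called Ccl7 higher in cortex (4.02, adjusted p = 0.00431) and Cxcl3 lower (-4.23, adjusted p = 0.049).

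Counted by calls, 10 ligands and 3 receptors were called higher at day 2 in both tissues, which have separate controls. Of the 32 members tested in both tissues these 13 are 40.6%, beside 7.2% of the 16250 genes tested in both. Some members near 0 in controls passed the filter only through injured libraries, such as Cxcl2 with 0 reads in control cortex and 1 in control bone. For these a call as higher was nearly the only one open, so the shares are no test of an excess. The 13 were among 20 members tested in both tissues and called higher in cortex, and among 16 called higher in bone. Ccl27a was lower in both, and Cx3cr1 was higher in cortex and lower in bone.

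**Figure D5:**
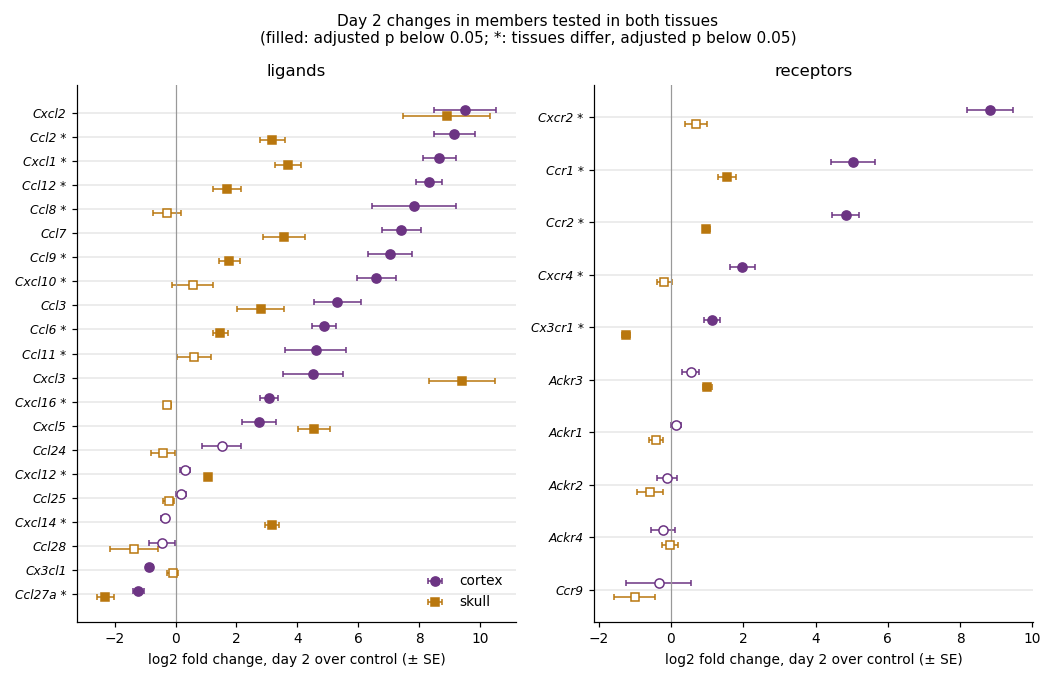
Log2 change from control at day 2 for members tested in both tissues, in cortex and in interparietal bone, with SE bars, where filled points passed an adjusted p of 0.05 and a star marks members whose responses differed between the tissues. Cxcl14 lies at -0.36 in cortex and 3.17 in bone, and Cx3cr1 at 1.13 and -1.25.

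Genes that act with the chemokines were counted from lists. The lists were chosen with earlier results of these data known, so their counts are a description and no test. Of 15 transcription factors and feedback regulators known to act on chemokine genes, all 15 rose in cortex at day 2 and 11 at day 6, and in bone 8 rose at day 2 and 1 at day 4. Of all genes, 14.7% and 7.93% were called higher at these times in cortex and 17.8% and 5.83% in bone, so that 1 of 15 in bone at day 4 is near the share of all genes. The largest of these in cortex was Bcl3, an NF-kappaB partner, with 9.0 CPM at day 2 and 0.255 CPM in controls (5.11 ± 0.45 on the log2 scale, adjusted p = 5.18e-06), and in bone Bcl3 averaged 26.6 CPM at day 2 and 8.29 CPM in controls (1.68 ± 0.13, adjusted p = 6.13e-05). Cebpd rose by 3.90 ± 0.26 in cortex and 1.07 ± 0.27 in bone (adjusted p = 7.12e-07 and 0.0160). Irf7, an interferon regulator, rose in cortex by 3.06 ± 0.31 (adjusted p = 1.39e-05) and was not called in bone. There it averaged 56.7 CPM at day 2 with an SD of 52.7 and 24.1 CPM in controls (1.23 ± 0.59, adjusted p = 0.146). The difference of its day 2 responses between the tissues was not called either (1.87 ± 0.81, adjusted p = 0.138). The median log2 change of the 15 was 1.59 in cortex and 0.63 in bone at day 2, beside 0.000352 and -0.0101 over all genes.

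Downstream of the receptors, 33 of 34 listed genes of chemokine signalling and leukocyte movement were tested in each tissue. In cortex 18 rose and 3 fell at day 2, where 24.7% of all genes were called, and 17 rose and none fell at day 6, where 10.3% were. In bone 5 rose and 1 fell at day 2, a smaller share than the 34.4% of all genes, and 16 rose and none fell at day 4, where 10.6% were called. Rac2, a leukocyte GTPase, rose in cortex by 3.76 ± 0.40 at day 2 and 3.40 ± 0.40 at day 6 (log2, SE; adjusted p = 0.000100 and 0.000544), and in bone by 1.00 ± 0.24 at day 4 (adjusted p = 0.0339). Rgs1, a brake on chemokine receptors, rose in cortex by 5.31 ± 0.71 at day 2 and 6.74 ± 0.70 at day 6 (adjusted p = 0.000375 and 0.000236). Grk2, the kinase that silences receptors, fell in cortex at day 2 by 0.39 (SE 0.10, adjusted p = 0.0119). Among 8 related genes, Pf4 averaged 6.91 CPM at day 2 and 0.495 CPM in control cortex (3.79 ± 0.53, adjusted p = 0.000245). Pf4 is a platelet CXC chemokine under another name and also one of the 6 border macrophage markers summed above. Mif, a cytokine that also binds Cxcr2 and Cxcr4, averaged 111 CPM at day 2 and 36.8 CPM in control bone (1.59 ± 0.10, adjusted p = 4.19e-05). Dpp4, an enzyme that trims Cxcl12, fell in bone at day 2 by 1.38 (SE 0.26, adjusted p = 0.00314).

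The members not tested were at low levels. In cortex 18 of 53 did not pass the filter, and the highest value among them was 1.72 CPM, for Cxcl11 in day 2 library 3. In bone 10 of 53 did not pass, and the highest was 7.03 CPM, for Ccl4 in day 2 library 3, whose other day 2 libraries had 1.35 and 0.666 CPM. Ccl20, the ligand of Ccr6, had 4 reads at day 2 and none in control cortex, and 22 reads at day 2 and none in control bone, at least a 7.23-fold higher level there against the floor of 3 reads. Ccl27 stood in the table in 16 identical copies and was counted once.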

How the data were processed

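RNA from cortex and interparietal bone of BALB/c mice was sequenced in 18 libraries as read pairs of 150 bases after poly(A) selection, per the labels' protocols. Per the submitters' processing notes the tool was HISAT2 2.1.0 with the build mm10. The program, annotation and strand option of the counting were not given in the sources used here. Raw counts per gene fill the deposited table, without normalization by the authors. Of its 26783 lines, 865 were identical copies of 49 names and were removed. Counts were tested in R 4.3.3 with edgeR 4.0.16: filterByExpr, TMM factors and a robust quasi-likelihood fit over the 9 libraries of a tissue, over 12 libraries for the difference of day 2 responses and over 6 for the control groups. P-values were two-sided and adjusted by Benjamini-Hochberg over all genes tested, and called below 0.05. A prior count of 0.125 went into fitted changes. A fold against no read uses a floor of 3 reads over the group, and against 1 to 3 reads is a ratio with a 95% interval, for counting error only.

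Values per library are given in each comparison for up to 6 ligands and 4 receptors with the smallest adjusted p and a mean of at least 1 CPM, for members that went against their class, and for the partners of those named. Other values were chosen for the text with results known. The members, gene lists and marker lists were chosen with earlier results of these data known. RPKM uses exon lengths of GENCODE M21. Promoters are from RefSeq (GRCm38.p6). The alternatives were RLE factors, no filter, a replicate block, library sizes that leave out haemoglobin and the 20 top genes, DESeq2 1.42.0, and leaving out each library. No pair of replicates agreed within counting noise, so none was merged. The procedure was tested on simulated data. Values of 1 member are not reported here, though the counts of members include it.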

Additional observations from a re-analysis of the deposited data

Results flagged for a closer look

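The response to injury at day 2 differed between cortex and bone, by the test of the difference itself, for the members named below. Each value is the log2 change in cortex minus that in bone. It was 3.39 for Cxcl16, -3.46 for Cxcl14, -0.69 for Cxcl12, 3.45 for Ccl6, 5.31 for Ccl9, 5.99 for Ccl2 and 6.65 for Ccl12 among the ligands. Among the receptors it was 2.43 for Cx3cr1, 3.90 for Ccr2, 8.13 for Cxcr2 and 2.20 for Cxcr4. Sizes for Ccl2, Ccl9, Ccl12 and Cxcr2 depend on how the few reads of control cortex are handled and are no bound. Leaving out 1 control cortex library moved them to 8.26 for Ccl2 and to 7.84 for Ccl12 (library 1), to 4.69 for Ccl9 (library 2) and to 9.66 for Cxcr2 (library 3). Cxcl14, Cxcl16, Cx3cr1 and Cxcr4 had opposite signs in the tissues, and of these only Cx3cr1 was called in both. The change of Cxcl14 in cortex (-0.36, adjusted p = 0.0512) was not called but passed under 4 of the 5 alternatives that keep all libraries. No explanation of these differences was tested.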

How the results depend on the processing

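The alternatives were applied to 8 counts of called members and to each member named. Library sizes that leave out haemoglobin and the 20 top genes changed no call. RLE factors added Cxcl14 in cortex at day 2 (adjusted p = 0.0404) and ended no call of a member named here. Without the filter, Cxcl14 there and Ackr3 between the cortex times were added, and Ccr1 in cortex at day 6 (0.101), Ccr7 in bone at day 2 (0.0757), Ccr1 in bone at day 4 (0.0696) and Ccl8 between the bone times (0.0659) were lost. With 1 library left out, the counts of members called ran from 23 to 24 in cortex at day 2 (23 with all), 11 to 17 at day 6 (18), 13 to 18 for day 6 against day 2 (16), 18 to 22 in bone at day 2 (21), 1 to 10 at day 4 (8), 13 to 16 for day 4 against day 2 (17), 15 to 20 for the difference of responses (19) and 34 to 37 for the controls (35). The replicate block gave 4 members in bone at day 4 in place of 8, and the lost calls were those of Cxcl5, Cx3cl1, Ccr3 and Cxcr5 (adjusted p of 0.0516 to 0.0823). Among the members named it also ended the calls of Ccr1, Ccl8 and Cxcl1 in cortex at day 6 (0.0723, 0.0662 and 0.0574), Ccl3 and Ccr7 in bone at day 2 (0.0726 and 0.0611), Cx3cl1 between the bone times (0.0602) and Cxcl12 in the difference of responses (0.0508). It added Cxcl14 and Cxcl12 in cortex at day 2, Ackr3 between the cortex times and Ccr1 between the bone times. The labels give no meaning to a shared replicate number. Correlations of same-numbered libraries were -0.04 to 0.23 in cortex and -0.46 to 0.16 in bone, with 7 of 18 pairs over 0.1, and 8 of 18 libraries correlated best with their own number, so the numbers were not taken as a pairing. DESeq2 ended no call and added 16, among them 4 in bone at day 4 (12 members in all), 4 between the bone times and 4 in the difference of responses (Ccl5, Ccl7, Cxcl3 and Cx3cl1).

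Signs that turned were those of small or uncalled changes. With 1 library left out, Ackr3 in cortex at day 6 ran from -0.41 to 0.03, Ccl3 between the cortex times from -0.64 to 0.31, Cxcl13 in bone at day 2 from -0.65 to 0.24 (0.19 in a further fit), Cx3cl1 there from -0.29 to 0.09, Ccl2 in bone at day 4 up to 0.61 and 0.02, Ccl7 there from -0.44 to 1.22 (-0.38 and -0.16 in others), Cxcr2 between the bone times up to 0.05 and 0.02, and Cxcl2 in the difference of responses from -1.75 to 2.16 (-0.05 and -0.02 in others). Ccl3 between the cortex times was also -0.31 without day 2 library 1 and -0.04 with the replicate block, and Cxcl2 in the difference of responses -0.08 with DESeq2. The cause was not tested. Members at a few reads in control cortex are limited by depth, and their absence there is not shown.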
